A study of Arabidopsis thaliana with 2 samples.

Results

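Cytosolic ribosomes of plants carry about as many different proteins as those of other eukaryotes, and nearly every one of these proteins is encoded by a small family of paralogous genes. The genes described here encode the proteins Sa to S21 of the small (40S) subunit in Arabidopsis thaliana. They comprise 60 loci for 23 proteins. The loci were chosen by name, as a protein class selected on the earlier observation that its genes had higher signals in GFP-TIE1-15 than in wild type. The direction of the difference between genotypes is therefore what chose them, and it is given below as a description with no test. Of the 60 loci, 32 had a probe set assigned to exactly 1 gene, as did 13286 genes in all, and 31 of these were bright enough to be counted as measured. A further 11 loci were present only on probe sets listed for several genes, and 17 were unnamed in the annotation used here.

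The study compared shoots (aerial parts) of Columbia-0 wild type, 14 days old, with those of GFP-TIE1-15 of the same age, a transgenic line carrying GFP-TIE1, with 1 Affymetrix array per genotype. TIE1 is known as a partner of TCP transcription factors that recruits TOPLESS corepressors in leaf development. The sources used here do not name the promoter of the transgene, and no other line or plant sample was analysed. After 3 days in the cold, both genotypes grew on Murashige and Skoog medium at 22 ± 2 °C in long days, with light for 16 h and darkness for 8 h. With 1 array per genotype no difference has a replicate check, so no test, error or p-value is given, and fewer cells of a type cannot be told apart from less RNA per cell.

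The small subunit binds the messenger RNA, scans to the start codon and holds the decoding site where codons meet transfer RNAs. Its proteins are divided between a head and a body with its platform, around a single ribosomal RNA. Body proteins such as S9 and S11 join the precursor early in the nucleolus, while several head proteins join later. Some proteins have bacterial counterparts and others are found only in eukaryotes and archaea. In Arabidopsis, loss of single ribosomal protein genes, such as those of S18 (PFL) and S13 (PFL2), is known for narrow, pointed first leaves. S6 is known as a target of the S6 kinases downstream of TOR, which ties ribosome activity to growth.

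Every measured gene of the class had a higher signal in GFP-TIE1-15 than in wild type. Signals are MAS5 intensities on a linear scale, and the log2 ratio is log2(signal + 50.0) in GFP-TIE1-15 minus the same in wild type. The pseudocount is 10% of the trimmed mean of 500.05. It makes each ratio smaller in size than the fold of the signals, most of all for a dim gene. Counts past 1.5-fold and 2-fold use this ratio. The gene AT2G17360, with a signal fold of 1.509 but 1.497 with the pseudocount, is therefore not counted as 1.5-fold higher. The 31 log2 ratios ran from 0.28 to 1.20 with a median of 0.66, a fold of 1.58. All 31 lay above 0, where 51.5% of the 11308 measured probe sets did. At least 1.5-fold higher were 17 of the 31, against 6.78% of all measured probe sets, and at least 2-fold higher were 3, against 1.20%. None was 1.5-fold lower. Since the class was chosen for this contrast, these shares describe it and support nothing further.

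The filter on dim probe sets did not decide the direction for any measured gene of the class. A probe set counted as measured when its brighter array reached 200.02, which is 40% of the trimmed mean. All 31 measured genes reached that value on both arrays, the lowest being 247.2 in wild type, whereas 1157 of all measured probe sets reached it on 1 array only. The 1 gene that was left out by the filter, the S8 gene AT5G59240, had 41.9 in wild type and 154.3 in GFP-TIE1-15. It lay in the same direction as the others, but both of its signals were below the minimum and it enters no count.

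**Figure D1:**
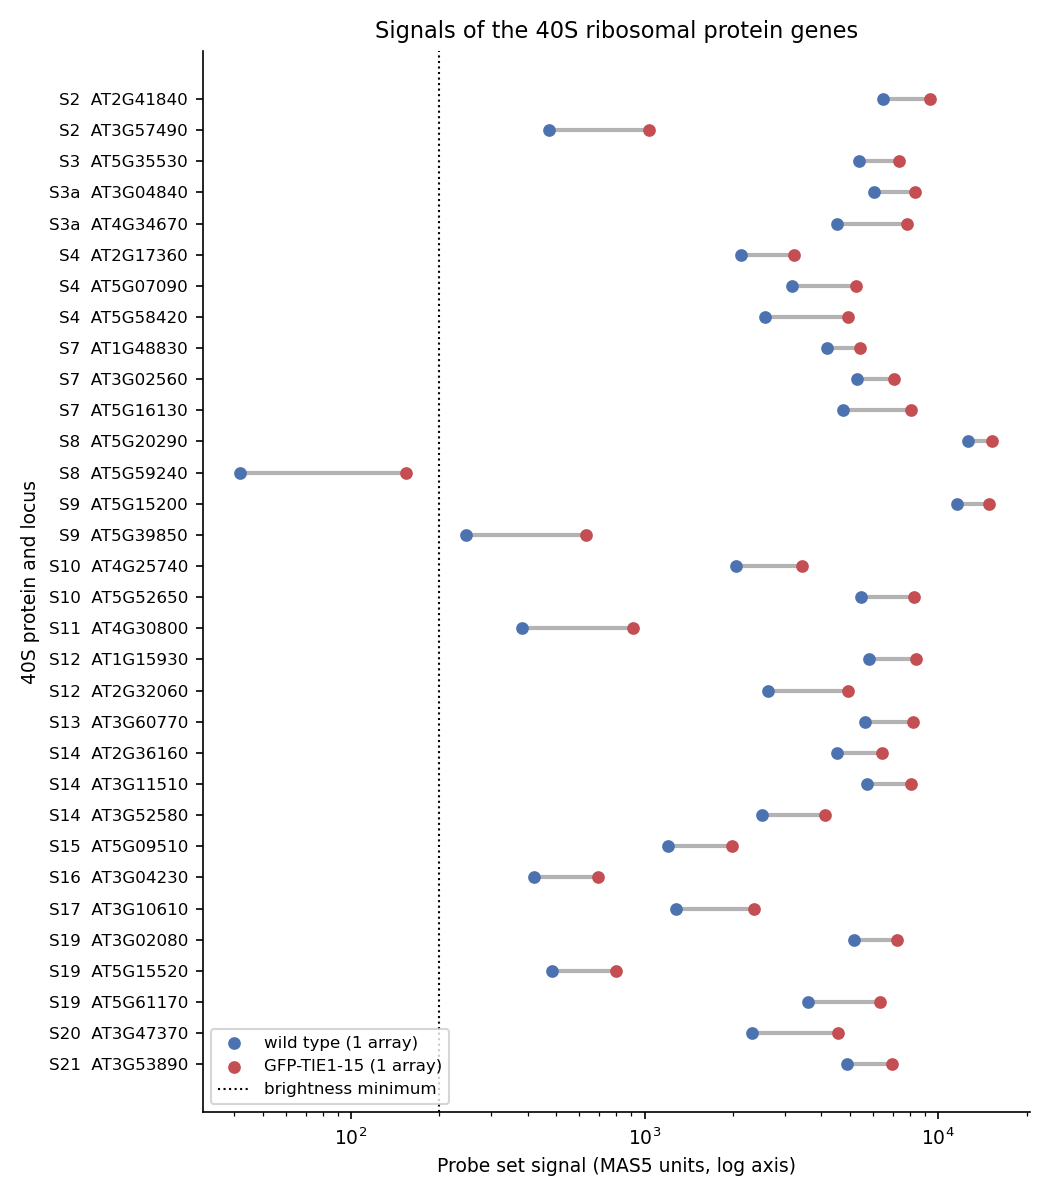
Probe set signals of the 32 genes of cytosolic 40S proteins that had a probe set of their own, on a log axis in MAS5 units, with 1 point per array and the brightness minimum of 200.02 as a dotted line. In each gene the GFP-TIE1-15 point lies to the right of the wild-type point, and only AT5G59240 lies below the minimum on both arrays.

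The highest ratio and the second lowest belonged to genes of the same protein, S9, which lines the path by which messenger RNA enters the subunit and acts in decoding accuracy. The wild-type array gave AT5G39850 a signal of 247.2 and the GFP-TIE1-15 array 632.8, for a log2 ratio of 1.20, the highest of the 31. Its paralogue AT5G15200 had 11597.5 and 14874, for a ratio of 0.36, the second lowest. In this and later pairs of signals the wild-type value comes before that of GFP-TIE1-15. The 2 paralogues thus differed by 0.84 in log2 ratio, the widest gap within any protein among the measured genes of the class. The difference in signal was 3276.5 units for AT5G15200 and 385.6 units for AT5G39850. The second highest ratio, 1.15, belonged to the S11 gene AT4G30800, with 382 and 910.7. S11 is a body protein with a bacterial counterpart that binds the ribosomal RNA. The lowest ratio of all, 0.28, belonged to the S8 gene AT5G20290, with 12612.4 and 15272.8. S8 is a body protein found in eukaryotes and archaea.

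The other body and platform proteins lay between these ends. S2 is a neighbour of S9 at the messenger RNA entry. Its gene AT3G57490 had 473.2 and 1032.6, a ratio of 1.05, and was the third gene past 2-fold. The other measured S2 gene, AT2G41840, had 6465.1 and 9388.4, a ratio of 0.53. Both S2 genes were thus higher in GFP-TIE1-15, with a gap of 0.51 between their ratios. S3a sits on the platform near the messenger RNA exit. AT4G34670 had 4509.6 and 7806 (0.78), and AT3G04840 had 6023.4 and 8339.4 (0.47).

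S14, a platform protein with a bacterial counterpart, had 3 measured genes whose ratios spanned 0.21. AT3G52580 had 2512.3 and 4124.2, a log2 ratio of 0.70. AT2G36160 had 4514.7 and 6417.2 (0.50), and AT3G11510 had 5736.4 and 8079.1 (0.49). S13 forms a contact with the large subunit, and its gene AT3G60770 had 5634.7 and 8230 (0.54). S13 and S14 therefore spanned only 0.49 to 0.70. S21, a small protein of the body found only in eukaryotes, was at 4906.5 and 6958.8 in the gene AT3G53890 (0.50). The list of remaining small-subunit proteins given below also covers S21, and its genes enter no paralogue gap here.

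S4 and S7 are body proteins without bacterial counterparts, and each had 3 measured genes. Among the S4 genes, AT5G58420 had 2577.5 and 4943.1 (0.93), AT5G07090 had 3169.3 and 5269.5 (0.72), and AT2G17360 had 2138.2 and 3226.2 (0.58). Among the S7 genes, AT5G16130 had 4746.1 and 8091.3, a ratio of 0.76. The remaining S7 genes were lower in ratio, with 5272.3 and 7078 in AT3G02560 (0.42) and 4193.1 and 5433.9 in AT1G48830 (0.37). In absolute signal AT5G16130 differed most between the arrays of all 31 genes, by 3345.2 units.

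Head proteins made up 12 of the 31 genes, and their ratios ran from 0.45 to 0.96. The highest was the S20 gene AT3G47370, with 2320.1 and 4553.7, a ratio of 0.96. S20 has a bacterial counterpart in the head. The lowest was the S3 gene AT5G35530, with 5355.1 and 7345.8. S3 belongs to the head side of the messenger RNA entry. S12, a protein of the beak, had AT2G32060 at 2629.3 and 4939.7 (0.90) and AT1G15930 at 5833.7 and 8388.1 (0.52).

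S19, a head protein whose loss in human and yeast impairs maturation of the subunit's ribosomal RNA, had 3 measured genes. AT5G61170 had 3612.9 and 6346.8 (0.80), AT5G15520 had 484 and 801.3 (0.67), and AT3G02080 had 5155.6 and 7256.2 (0.49). All were higher in GFP-TIE1-15 over a broad span of signal. S17, another head protein of eukaryotes and archaea, had AT3G10610 at 1283.8 and 2351.9 (0.85). S15 and S16 reach towards the transfer RNAs at the decoding site. The S15 gene AT5G09510 had 1202.2 and 1991.2 (0.70), and the S16 gene AT3G04230 had 419.4 and 693.3 (0.66).

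The narrowest gap within a protein was that of S10, a head protein that in human cells is ubiquitinated when ribosomes stall. AT4G25740 had 2054.6 and 3450.2, a ratio of 0.73, and AT5G52650 had 5454.7 and 8279.5, a ratio of 0.60. The paralogues differed by 0.14. Of the 18 proteins with a measured gene, 9 had several within the class, and the gap between the highest and the lowest ratio of a protein had a median of 0.34. No protein had measured genes of the class on opposite sides of 0. Without replicates, a gap of this size has no error against which it could be judged.

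**Figure D2:**
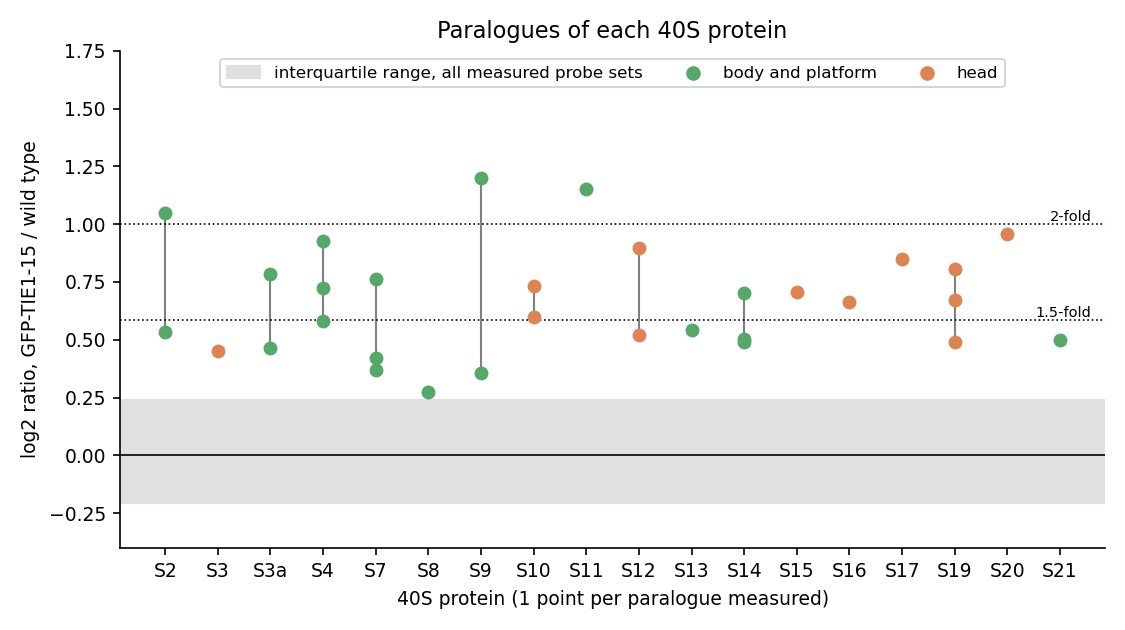
Log2 ratios of the 31 measured genes by protein, with 1 point per paralogue, lines joining paralogues, dotted lines at 1.5-fold and 2-fold, and a band for the interquartile range of all measured probe sets, from -0.21 to 0.24. Every point lies above the band. Among these genes of the class, S9 has the widest gap (0.84) and S10 the narrowest (0.14).

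By position in the subunit, the 19 genes of body and platform proteins had a median log2 ratio of 0.54 and a range of 0.28 to 1.20. The 12 genes of head proteins had a median of 0.69 and a range of 0.45 to 0.96. At least 1.5-fold higher were 8 of the 19 and 9 of the 12, where the share among all measured probe sets was 6.78%. The range of the head genes lies within that of the body and platform genes, and the 3 genes past 2-fold all encode body proteins. By conservation, the 13 genes of proteins with bacterial counterparts had a median of 0.66, and the 18 genes of the other proteins had 0.64. Neither division was tested.

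The ratio was lower for genes whose probe sets were brighter. Among the 5 measured genes with a mean signal under 1000, the log2 ratios ran from 0.66 to 1.20 with a median of 1.05, and all 5 were at least 1.5-fold higher. Among the 11 genes from 1000 to 5000 the median was 0.73, with 9 at least 1.5-fold higher. Among the 15 genes at 5000 or more it was 0.50, with 3 at least 1.5-fold higher. The corresponding medians over all measured probe sets were 0.02, 0.01 and -0.07, and the shares at least 1.5-fold higher were 7.05%, 6.03% and 6.95%. The signal of a probe set depends on its probes as well as on the transcript, so signals of different genes do not rank their transcript amounts.

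Across the 31 genes, log2 ratio and log2 mean signal had a Pearson's r of -0.71 and a Spearman's rho of -0.68. Across all 11308 measured probe sets r was -0.03. These correlations run across genes read on the same 2 arrays, which are no independent replicates. Over the 26 genes with a mean signal of at least 1000, r was -0.66. After quantile normalization r over the 31 genes was -0.68, and after removal of a loess trend of ratio on signal it was -0.65. Over 63 measured genes of large-subunit (60S) proteins r was -0.31. In 6 of the 9 proteins with several measured genes, the paralogue with the highest ratio was also the one with the dimmest probe set, the exceptions being S4, S7 and S19. Each of the 9 had only 2 or 3 measured genes, so the 2 can often coincide without any relation. Compression of the brightest signals on the arrays was not tested.

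**Figure D3:**
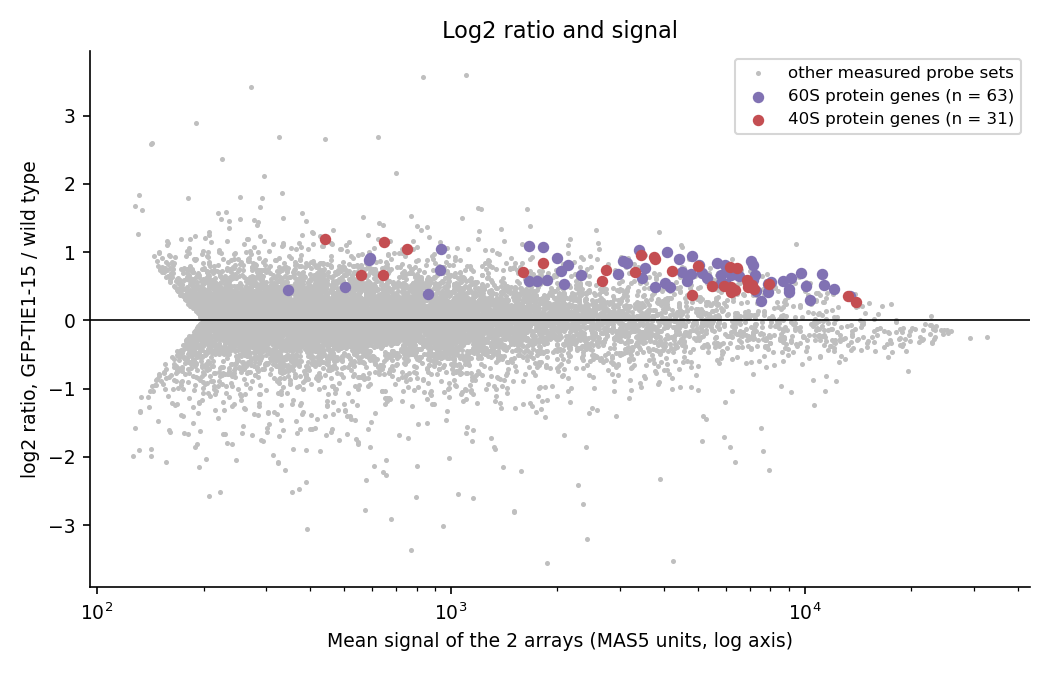
Log2 ratio of each measured probe set against its mean signal on the 2 arrays (MAS5 units, log axis), with the 31 genes of 40S proteins, the 63 genes of 60S proteins and all other measured probe sets. Genes of both subunits lie above 0 over the whole span of signal, and the 40S genes slope down from 1.20 to 0.28 with rising signal.

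Most of the class was bright. Of the 31 genes, 26 lay among the brightest 25% of measured probe sets by mean signal, and of the probe sets there 6.54% reached 1.5-fold in GFP-TIE1-15, against 12 of the 26. These 12 were 6.49% of the 185 bright probe sets that did so. The listed 60S genes gave a further 34, or 18.4%, and other listed 40S genes gave 3. The ratios of the 31 genes had an SD across genes of 0.23, against 0.45 over all measured probe sets. The robust SD, which is the scaled median absolute deviation, was 0.24 for the 31 genes and 0.33 over all measured probe sets. Both describe a spread among genes on these arrays and not one between plants.

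Other genes of the ribosome were listed for comparison, and like the class itself these lists were drawn up with earlier results known. The remaining small-subunit proteins, from S21 to S30 with RACK1 and further S15 and S15a loci, comprised 37 loci, of which 10 were measured. All 10 lay above 0 with a median log2 ratio of 0.59, and 5 were at least 1.5-fold higher. Their highest ratio was 0.83 in AT2G21580, which had 1994.5 and 3578.6. Their lowest was 0.29 in AT5G47930, which had 5411.9 and 6647.7. The 63 measured genes of 118 listed for 60S proteins had a median of 0.66, with 38 at least 1.5-fold and 5 at least 2-fold higher. Over all measured probe sets the shares were 6.78% and 1.20%. The 60S ratios ran from 0.29 in AT1G18540, with 6789.1 and 8300.5, to 1.09 in AT3G16780, with 1049.7 and 2286.5. The medians of the 40S and 60S genes both rounded to 0.66.

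Among listed cytosolic ribosomal protein genes below the brightness minimum, the direction was mixed. Of the 6 such genes of the other 40S proteins 1 lay above 0, and of the 7 such genes of 60S proteins 3 did. The lowest was AT1G12960, with 39 and 7.3. AT5G59240 of S8 was thus above 0 in a range of signal where these genes were not uniformly so.

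Of 10 listed nuclear genes for small-subunit (30S) proteins of the plastid ribosome, only 2 had a probe set of their own, and both had lower signals in GFP-TIE1-15. AT3G13120 had 6611.1 and 5614.1, a log2 ratio of -0.23. AT1G64510 had 5088.5 and 4358.2, a ratio of -0.22. Both ratios are within the robust SD of 0.33 over all measured probe sets. Of 7 listed genes of TOR and S6 kinase signalling, 1 was measured. It was RAPTOR1 (AT3G08850), a subunit of the TOR complex, with 359.3 and 314.6 (-0.17).

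**Figure D4:**
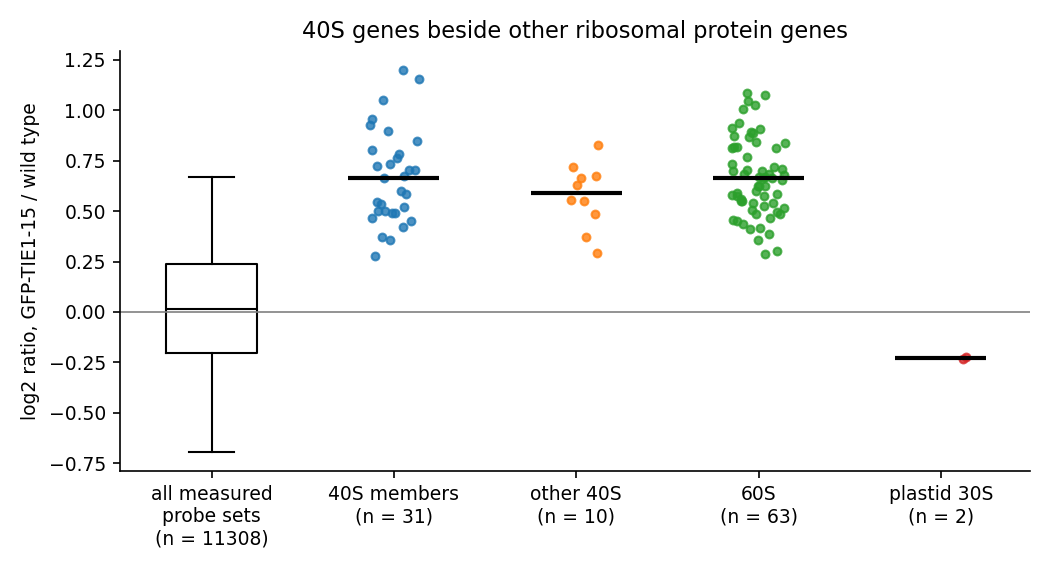
Log2 ratios of all measured probe sets (box for the interquartile range, line for the median, whiskers from the 5th to the 95th percentile), of the 31 genes of 40S proteins and of 3 comparison lists, with 1 point per gene and a bar at each median. The medians are 0.66 for the 40S genes, 0.59 for the other 40S genes and 0.66 for the 60S genes, and both plastid 30S genes lie below 0.

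Genes next to the class on the chromosomes lay closer to 0. Of the 62 nearest protein-coding neighbours of the 31 genes, 17 had a measured probe set of their own and none was in a ribosomal list. Their median log2 ratio was 0.17, 11 of them lay above 0, and 1 was at least 1.5-fold higher and 1 at least 1.5-fold lower. Over all 11308 measured probe sets the median was 0.01, and 51.5% lay above 0. Of these probe sets, 6.78% were at least 1.5-fold higher and 776 at least 1.5-fold lower. The range ran from -0.63 in AT3G02070, beside the S19 gene AT3G02080, to 0.98 in AT4G25730, beside the S10 gene AT4G25740. Those ends were picked out after their values were seen.

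Other properties of the 2 samples bear on the comparison. Over all probe sets the arrays had median signals of 169.3 and 173.05. Log2 ratios of the 12 measured spike-in controls of bacterial and phage origin ran from -0.36 to 0.04, with a median of -0.22. In 6 pairs of control probe sets, the quotient of 3′ over 5′ signal differed between the arrays by -0.44 to 0.06 on the log2 scale, with a median of 0.01. The leaf genes RCA and LHCB4.1, the measured ones of 5 listed, were bright on both arrays, with summed signals of 46720.1 and 36981.1. Of 5 listed root genes, EXPA7 was at 30.1 and 3.8, and EXPA18 at 62.3 and 44.3. PYK10 was at 6745.9 and 5954, and the other listed root genes had no probe set of their own.

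Of the 3 measured genes known from dividing cells, all lay above 0, where 51.5% of all measured probe sets did. So few genes do not describe cell division genes as a group. Of 24 listed division genes, 4 had a probe set of their own, with summed signals of 1081.7 and 1470.3. The mitotic kinase genes AUR1 and AUR2 had log2 ratios of 0.58 and 0.61, the replication gene PRL had 0.20, and AUR3 was below the minimum at 102.1 and 92.9. The part of a different share of dividing tissue in the ribosomal protein values was not tested. A difference between the 2 plant samples cannot be told apart from one between the genotypes. TIE1 itself had no probe set of its own in the annotation used here, so the level of the transgene was not analysed.

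For 5 of the 23 proteins, no value could be given for any locus of the class. Sa (AT1G72370 and AT3G04770), S5 (AT3G11940 and AT2G37270), S6 (AT4G31700 and AT5G10360), S15a (AT1G07770, AT3G46040 and AT5G59850) and S18 (AT1G22780, AT1G34030 and AT4G09800) hold 12 of the 17 unnamed loci. S5 is known in Arabidopsis for the promoter of AT3G11940, active in dividing cells. The other 5 were AT5G41520 of S10, AT3G48930 and AT5G23740 of S11, AT4G00100 of S13 and AT1G04270 of S15. The 11 loci found only on shared probe sets were AT1G58380 and AT1G59359 of S2, AT2G31610 and AT3G53870 of S3, AT2G09990 and AT5G18380 of S16, AT2G04390, AT2G05220 and AT5G04800 of S17, and AT3G45030 and AT5G62300 of S20. Their 5 probe sets cannot be assigned to a single gene.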

How the data were processed

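The authors deposited linear intensity values, the MAS5 signals of 22810 probe sets on each of 2 arrays, 1 per genotype. The submitters' processing notes name GCOS 1.0 and MAS5 but the scaling target was not stated there. Trimmed of 2% at both ends, the signals averaged 500.05 on either array, and no further scaling was applied to the deposited intensity values. Per the labels' protocols, 5 µg of total RNA was labelled for each array. Detection calls were not used here.

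Of the probe sets, 13513 were assigned to 1 gene symbol and 503 to several, by the platform annotation, and 13436 of the former matched a locus of the TAIR10.1 RefSeq gene table, from which only names and neighbours were taken. Proteins were assigned to loci from general knowledge of the species, as were the comparison lists. The 60 loci and all lists were chosen with earlier results of these data known. Each measured member had 1 probe set, with none of the suffixes that mark shared probes. With 1 array per genotype the precision is unknown, and fixed folds of 1.5 and 2 replaced tests. Genes with full values were the 2 highest and 2 lowest ratios, the proteins with the widest and narrowest gap, the gene below the minimum and the ends of each list. Further members are given with both signals because there are only 2 arrays. The rule also named Sa, S5, S6 and S18, which had no value. Sequences and promoter motifs were not analysed here.

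Alternatives were another pseudocount (1, or 25% of the trimmed mean), quantile normalization, division by the array median, subtraction of a loess trend, another brightness minimum (none, or 100% of the trimmed mean), and omission of probe sets with shared suffixes. Scripts were tested on simulated data. Values were computed in Python 3.11.15 with pandas 2.3.3 and numpy 2.4.6, correlations with scipy 1.17.1, the loess trend with statsmodels 0.14.6 and plots with matplotlib 3.10.9.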

Additional observations from a re-analysis of the deposited data

How the results depend on the processing

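No paired analysis was possible because there was only 1 array for each genotype. All 31 measured 40S genes stayed above 0 under the alternative scalings. Another pseudocount could change the size of a ratio but not its sign. The other brightness minimums and the removal of shared suffixes could not change a ratio. The median log2 ratio of the class was between 0.59, at the pseudocount of 25%, and 0.71, at that of 1, and it was 0.67 over 32 genes with no brightness minimum. Between 16 and 18 genes were at least 1.5-fold higher, and between 2 and 4 at least 2-fold higher. AT5G20290, the lowest at 0.28 as deposited, was at 0.36 after removal of the loess trend and at 0.40 after quantile normalization, where AT1G48830 was the lowest at 0.35. AT5G39850, the highest as deposited, was at 1.35 with the pseudocount of 1, while with that of 25% it and AT4G30800 were both at 1.03, AT4G30800 being slightly higher. Counts over all probe sets moved with the settings. The 136 at least 2-fold higher became 209 and 75 with pseudocounts of 1 and of 25%, and 83 with the minimum of 100%. The 767 at least 1.5-fold higher became 1200 with no minimum and 483 with that of 100%, since other numbers of probe sets entered. The median of the other 40S genes was 0.43 over 16 genes with no minimum. The median of all measured probe sets stayed between -0.02 and 0.01 whichever scaling was used. For dim genes the signal over background sets the limit, and 1 array per genotype limits every value.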

Other observations

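The 5 probe sets that the annotation lists for several genes, among them loci of the class, were read by protein after the other values had been seen. They cannot be assigned to a gene. For S3 the wild-type array gave 4343 and the GFP-TIE1-15 array 8145.4, a log2 ratio of 0.90. For S20 it was 4476.9 and 6778.2 (0.59), and for S2, with 2 further loci on the same probe set, 9422.5 and 13503.3 (0.52). For S17 it was 7788.5 and 10124.8 (0.38), and for S16 it was 13828.3 and 16482.1 (0.25). All 5 were thus higher in GFP-TIE1-15, and the brightest had the smallest ratio. With these probe sets added, 36 in all, the median log2 ratio of the class was 0.60 and 19 were at least 1.5-fold higher, against 6.78% of all measured probe sets. The shared S3 probe set had a ratio of 0.90 where the S3 gene with its own probe set, AT5G35530, had 0.45.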
